A study of Homo sapiens with 60 samples.

Results

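The genes that encode the proteasome were followed through HT29 cells, a line from a human colorectal adenocarcinoma, exposed to herbal extracts. They were chosen by name, as protein-coding genes called PSM, then a letter from A to G, then a number, and 48 of the 60675 genes in the count table met that rule. By role they were 8 alpha and 7 constitutive beta subunits of the 20S core, 4 immune or thymus beta subunits, 6 ATPases and 11 other subunits of the 19S cap, 7 assembly chaperones, and 5 activators or inhibitors. The rule used no measured value. It left out 53 other table entries with PSM names, of which 44 were pseudogenes and 7 were noncoding, along with the protein-coding PSMC3IP and PSME3IP1. The filter on low counts was passed by 46 genes. The others were PSMA8, a testis alpha subunit with 0 counts in every library, and PSMB11, the thymus beta subunit, with at most 1 count in any library.

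The proteasome degrades proteins that carry ubiquitin chains. Its 20S core is a barrel of alpha and beta rings, in which PSMB5, PSMB6 and PSMB7 carry the active sites. The 19S cap binds the ubiquitylated substrate, removes the chain and unfolds the protein with its ring of ATPases. Interferon is known to induce PSMB8, PSMB9 and PSMB10, which take the places of PSMB5, PSMB6 and PSMB7 in the immunoproteasome, and the PSME1 and PSME2 activator. In human cells the constitutive subunit genes are known to be induced together by the transcription factor NFE2L1 when proteasome activity falls. NFE2L2, also called NRF2, is known to induce some of them in response to electrophiles.

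RNA was sequenced from HT29 cells after 24 h with a 70% ethanol extract or with DMSO, the vehicle, in 60 libraries. Menthae Herba, Saposhnikoviae Radix, Guibi-tang and Saengmaek-san had 3 libraries at each of 500, 100 and 20 µg/mL, here called high, medium and low. Aucklandiae Radix had 2 libraries at each of 370, 74 and 14.8 µg/mL, and Polygalae Radix had 2 at each of 380, 76 and 15.2 µg/mL. Soyo-san had 2 libraries and Okbyeongpung-san 1 at each of 500, 100 and 20 µg/mL, and the vehicle group had 3. The high doses of Aucklandiae Radix and Polygalae Radix were set below the other extracts' by a rule on growth inhibition (IC20), per the design text. The labels give 0.1% DMSO and the design text 2%, which was not settled. By the leading number of their library names, the extracts fall in 4 sets. These are Aucklandiae Radix with Polygalae Radix, Menthae Herba with Saposhnikoviae Radix, Guibi-tang with Saengmaek-san, and Soyo-san with Okbyeongpung-san. The labels do not say what that number stands for. The vehicle libraries carry a library prefix of their own, so set and treatment cannot be told apart in any comparison with vehicle. The labels do not tell whether replicate libraries were grown as separate cultures. The p-values therefore reflect library-to-library spread alone, which may be technical.

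Libraries held 17079221 to 36796414 counts. Saposhnikoviae Radix low replicate 2 stood apart, with a best correlation of 0.85 with a library of its group against at least 0.995 for the others, and it was left out by the selection rule. It touches other comparisons too, because all groups share 1 estimate of spread, and counts of proteasome genes called with it are given beside those without it. Defining markers of other cell types were near 0. COL1A2, CD3E, ALB and APOA2 were at 0 in 53 to 57 of the other 59 libraries. Of the 9 gut epithelial markers, CDX1 was low, with a median of 0.739 CPM and 1 library at 0, and the others were above 0 in all 59. Levels below are in CPM, counts scaled to a common library size, so they are shares of the RNA. In such bulk samples, fewer cells of a type and less RNA per cell cannot be told apart.

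The constitutive core and cap genes moved together, and 2 extracts of the same set lay at opposite ends. The summed level of the 31 constitutive 20S and 19S genes kept was 7353 and 7025 CPM in Aucklandiae Radix high libraries, against 4411 and 4467 CPM in its low libraries. In Polygalae Radix it was 3744 and 3643 CPM in high libraries, against 4457 and 4358 CPM in low libraries. The vehicle libraries lay at 4371, 4693 and 4707 CPM. Aucklandiae Radix high thus ranked 1 and Polygalae Radix high 25 among the 25 groups, and neither overlapped its own low dose. Between them, Menthae Herba gave 5119, 5294 and 5391 CPM in high libraries, against 4613, 4549 and 4547 CPM in low libraries. Guibi-tang gave 5060, 5137 and 5084 CPM in high libraries, against 4368, 4450 and 4876 CPM in low libraries. Soyo-san gave 4910 and 5065 CPM in high libraries, against 4633 and 4634 CPM in low libraries. The high libraries of these 3 extracts also lay above all of their low libraries. Saengmaek-san averaged 4729 ± 89.4 CPM at the high dose and 4470 ± 47.6 CPM at the low dose (SD, n = 3 each). Saposhnikoviae Radix averaged 4710 ± 14.2 CPM at the high dose (SD, n = 3) and 4513 ± 5.84 CPM at the low dose (SD, n = 2). The high libraries of Saengmaek-san, from 4626 CPM, also lay above its low libraries, which reached 4513 CPM. Those of Saposhnikoviae Radix, from 4694 CPM, lay above its low libraries used, which reached 4517 CPM.

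**Figure D1:**
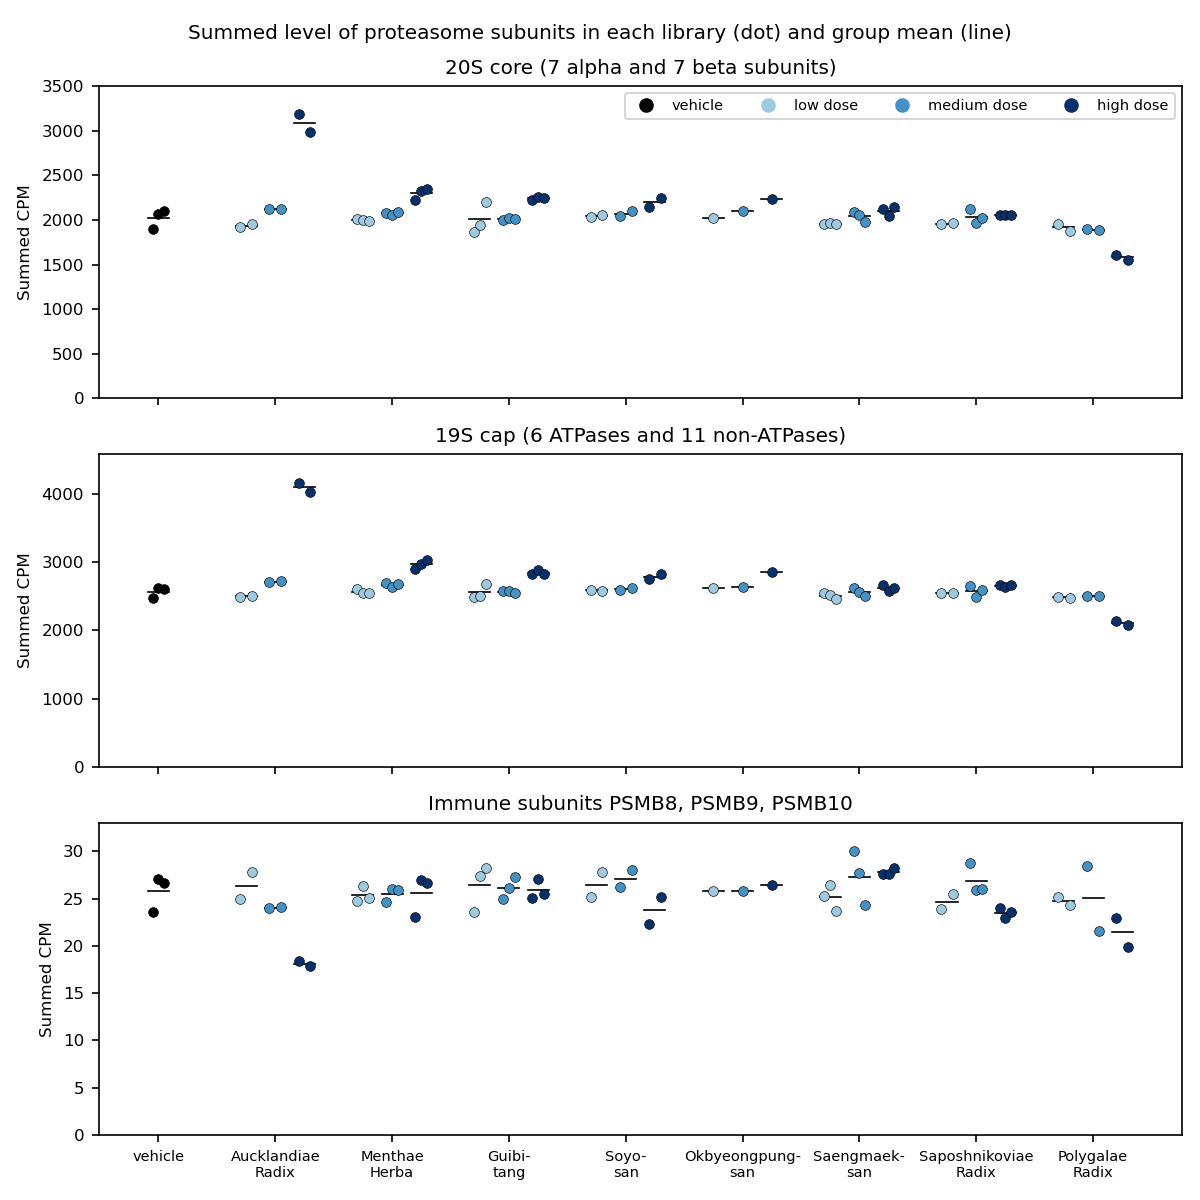
Summed CPM per library (y axes) of the 20S core, the 19S cap and the immune beta subunits in vehicle and in 8 extracts (x axis), with dots coloured by dose and lines at group means. The core and cap sums are highest in Aucklandiae Radix high and lowest in Polygalae Radix high, while the immune sum is lowest in Aucklandiae Radix high, at 18.4 and 17.8 CPM.

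Each extract's high dose was compared with its low dose, which lie in 1 set and share no control with another extract. A gene was called at an adjusted p under 0.05 in edgeR's quasi-likelihood test over 16978 genes. In Aucklandiae Radix, 34 of the 46 proteasome genes tested rose and 7 fell, or 89.1% called, where 59.1% of all genes were called. Their median log2 fold change was 0.60, against -0.02 over all genes. In Polygalae Radix, none rose and 26 fell, or 56.5% called, where 29.4% of all genes were called, with a median of -0.21 against -0.01. In Menthae Herba, 34 rose and none fell, or 73.9% called, against 23.8% of all genes, with a median of 0.18 against -0.01. In Guibi-tang, 22 rose and 1 fell, or 50% called, against 18.1% of all genes, with a median of 0.14 against -0.003. Each of these 4 shares lay above its background. In Soyo-san, 3 genes rose, or 6.52%, against 2.60% of all genes, and none was called without Soyo-san high replicate 1 or low replicate 2. With all 57 libraries in the fit, the counts called were 31 in Aucklandiae Radix, 4 in Polygalae Radix, 4 in Menthae Herba, 3 in Guibi-tang and 0 in Soyo-san. Shares of all genes called are given for the main fit and the interaction tests only. Other counts under alternative settings, here and below, have no background.

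**Figure D2:**
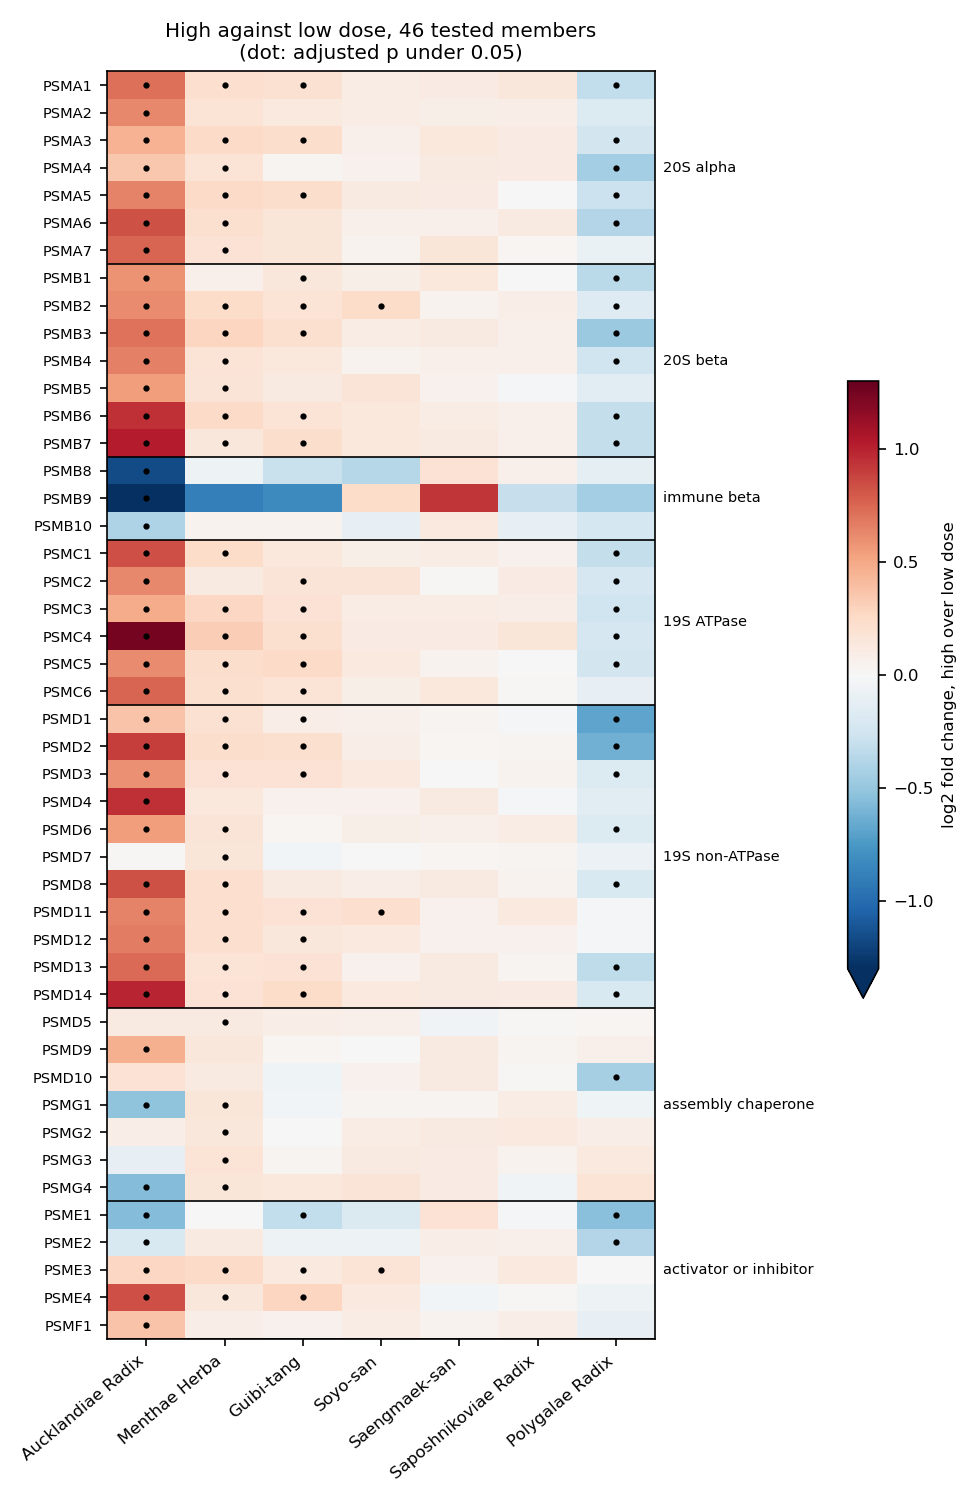
Log2 fold change of high over low dose (colour, saturating at the ends of the scale) for 46 proteasome genes (y axis, by role) in 7 extracts (x axis), with a dot where the adjusted p is under 0.05. The Aucklandiae Radix column holds 34 rises and 7 falls, and the Polygalae Radix column 26 falls.

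No proteasome gene was called in Saengmaek-san high against low by edgeR or by DESeq2, where 0.830% of all genes were called. Its median log2 fold change was 0.10, 16 genes had an unadjusted p under 0.05, and the smallest adjusted p was 0.12. None was called there with all 57 libraries. None was called in Saposhnikoviae Radix by either tool, where 0.289% of all genes were called. There the median was 0.06 and 6 genes had an unadjusted p under 0.05. With all 57 libraries, 27 were called in Saposhnikoviae Radix, 5 higher and 22 lower, and the library left out belongs to its low group.

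No gene was called at the medium dose against the low dose in any of the 7 extracts by edgeR. The background was 2.64% of all genes in Aucklandiae Radix, 5.09% in Polygalae Radix, 0.0294% in Menthae Herba, 0.124% in Guibi-tang, and 0% in Saposhnikoviae Radix, Saengmaek-san and Soyo-san. At an unadjusted p under 0.05 there were 18 genes in Aucklandiae Radix, 7 in Polygalae Radix, 7 in Saposhnikoviae Radix, 6 in Menthae Herba, 4 in Saengmaek-san, 1 in Guibi-tang and 0 in Soyo-san. DESeq2 called 2 in Aucklandiae Radix, 1 in Polygalae Radix and 0 in the other 5. In Aucklandiae Radix, the summed level of the 31 core and cap genes was 4411 and 4467 CPM at the low dose. It was 4836 and 4847 CPM at the medium dose and 7353 and 7025 CPM at the high dose. For medium against low, 24 were called in Saposhnikoviae Radix and 0 in the other 6 extracts with all 57 libraries.

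Promoters are shown because the core and cap genes moved together. RefSeq start sites (GRCh38.p14) were matched for 42 of the 48 genes, and the 250 bases before each start were searched on both strands. No window was available for PSMA7, PSMB1, PSMB6, PSMB7, PSMD4 and PSMG3, all of which but PSMG3 encode core or cap subunits. The core letters of the antioxidant response element, TGACNNNGC, the motif bound by NFE2L1 and NFE2L2, were in 11 of 42 windows, or 26.2%, against 11.0% of 27305 windows of all genes. The share was 11.5% among windows of protein-coding genes. The letters were in 4 of 6 chaperone windows, 3 of 5 activator or inhibitor windows, 2 of 10 cap windows outside the ATPases, 1 of 4 constitutive beta windows, 1 of 4 immune windows, 0 of 6 ATPase windows and 0 of 7 alpha windows. Among the genes with a window, most matches were thus in chaperones, activators or inhibitors, which were mixed in direction in Aucklandiae Radix. The part of these letters in the rises and falls was not tested. CCAAT was in 42.9% of the windows against 33.0% of all, CACGTG in 7.14% against 6.49%, and the interferon response repeat, which is GAAA, any 2 bases and GAAA again, in 11.9% against 3.07%. A match is a run of letters and not a site shown to be bound.

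Windows are given for PSMB3 (chr17:38752491-38752735, plus strand) and PSMD3 (chr17:39980557-39980796, plus strand), which rose in Aucklandiae Radix, Menthae Herba and Guibi-tang and fell in Polygalae Radix. They are the searched windows without the last 5 bases for PSMB3 and 10 for PSMD3, which lie in annotated exons. They run 5′ to 3′, and capitals mark TGACNNNGC and CCAAT, read on either strand:
PSMB3: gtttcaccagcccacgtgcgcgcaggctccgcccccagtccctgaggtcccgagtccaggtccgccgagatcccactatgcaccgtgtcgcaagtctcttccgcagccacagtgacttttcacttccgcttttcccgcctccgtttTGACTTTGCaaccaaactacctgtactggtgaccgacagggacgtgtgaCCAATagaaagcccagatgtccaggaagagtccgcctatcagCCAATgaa
PSMD3: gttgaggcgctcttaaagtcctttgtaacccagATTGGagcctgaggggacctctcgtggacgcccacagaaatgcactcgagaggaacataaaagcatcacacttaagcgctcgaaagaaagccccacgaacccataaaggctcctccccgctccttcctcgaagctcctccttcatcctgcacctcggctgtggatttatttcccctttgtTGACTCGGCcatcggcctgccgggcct

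The same letters lie before genes that fell in Aucklandiae Radix. PSMG1 (chr21:39183616-39183644, minus strand), PSME1 (chr14:24136098-24136126, plus strand) and PSMB9 (chr6:32854034-32854062, plus strand) fell there, while PSMD9 (chr12:121888678-121888706, plus strand) and PSME4 (chr2:53971009-53971037, minus strand) rose. The fall of PSMB9 rests on 3 counts in high libraries against 11 in low libraries, and DESeq2 did not call it. Each stretch holds 29 bases along the gene's strand, with the TGACNNNGC match, or its reverse complement, in capitals:
PSMG1: gcccagggcaTGACAGCGCgggcgggcgg
PSME1: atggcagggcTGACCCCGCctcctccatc
PSMB9: gggcggggctGCCTCGTCActtgtctcgg
PSMD9: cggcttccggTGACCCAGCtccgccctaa
PSME4: cccggcggctGCAGCGTCAccagcagagc

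In Aucklandiae Radix the rise reached every ring of the core and nearly all of the cap. All 7 alpha subunits tested rose, with a median log2 fold change of 0.65, as did all 7 constitutive beta subunits, also with a median of 0.65. All 6 ATPases rose, with a median of 0.69, and 10 of the 11 other cap subunits rose. PSMC4, an ATPase of the cap, had 349 and 330.1 CPM in high libraries, against 145 and 142 CPM in low libraries, a log2 fold change of 1.24 ± 0.05 (SE; adjusted p = 3.46e-24). PSMB7, the subunit with trypsin-like activity, had 259 and 249 CPM in high libraries, against 124.5 and 125 CPM in low libraries (1.02 ± 0.06, adjusted p = 1.12e-18). The groups did not overlap for either gene. PSMD14, the enzyme that cuts ubiquitin chains off substrates, had 175 and 168 CPM in high libraries, against 85.5 and 87.7 CPM in low libraries (0.99 ± 0.06, adjusted p = 7.45e-18). PSMB6, the caspase-like subunit, had 137.5 and 127 CPM in high libraries, against 70.3 and 67.1 CPM in low libraries (0.95 ± 0.06, adjusted p = 6.36e-17). PSMB5, the chymotrypsin-like subunit, had 101 and 93.2 CPM in high libraries, against 66.7 and 66.4 CPM in low libraries. Its log2 fold change was 0.55 ± 0.06 (adjusted p = 5.02e-10), the smallest of the 3 catalytic subunits. PSMD4, a ubiquitin receptor of the cap, rose by a log2 fold change of 0.95 (adjusted p = 2.29e-16).

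PSMD7, the partner of PSMD14 in the cap, was the 1 gene of the 31 core and cap genes that was not called. It had 134 and 124 CPM in Aucklandiae Radix high libraries, against 127.5 and 129 CPM in low libraries, and the groups overlapped. Its log2 fold change was 0.01 with a 95% interval of -0.12 to 0.14 (adjusted p = 0.882). In Menthae Herba it had 143, 148 and 150.1 CPM in high libraries, against 129, 129.9 and 135 CPM in low libraries, which did not overlap.

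The immune subunits went the other way in Aucklandiae Radix: all 3 tested fell, with a median log2 fold change of -1.16. PSMB8 had 2.59 and 2.43 CPM in high libraries, against 5.53 and 5.74 CPM in low libraries (-1.16 ± 0.16, adjusted p = 1.48e-08). PSMB10 had 15.8 and 15.3 CPM in high libraries, against 19.1 and 21.9 CPM in low libraries (-0.40 ± 0.12, adjusted p = 0.00264). PSMB10 was no longer called without Aucklandiae Radix low replicate 3, where its log2 fold change was -0.29 (adjusted p = 0.0859). PSMB9 rests on few reads, with 1 and 2 counts in high libraries against 8 and 3 counts in low libraries. The ratio of its summed counts per total was 0.26, with an exact 95% interval of 0.0465 to 0.984 that covers counting error only. Its fitted adjusted p was 0.0361, and it was not called by DESeq2 (adjusted p = 0.136) or without a filter (adjusted p = 0.102). It was not called either without Aucklandiae Radix high replicate 2 (adjusted p = 0.248) or low replicate 2 (adjusted p = 0.494).

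Per length, the immune subunits were a small part of the catalytic transcripts in all groups. On a CPM per kilobase scale, PSMB8 made up 2.89% ± 0.03 of the PSMB8 and PSMB5 total in Aucklandiae Radix high (SD, n = 2). It made up 8.88% ± 0.24 at the low dose (SD, n = 2) and 8.37% ± 0.53 in vehicle (SD, n = 3). PSMB10 made up 4.70% ± 0.03 of the PSMB10 and PSMB7 total in Aucklandiae Radix high (SD, n = 2). It made up 11.7% ± 0.99 at the low dose (SD, n = 2) and 10.8% ± 0.60 in vehicle (SD, n = 3). In Polygalae Radix high the share was 8.77% for PSMB8 and 11.0% for PSMB10.

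**Figure D3:**
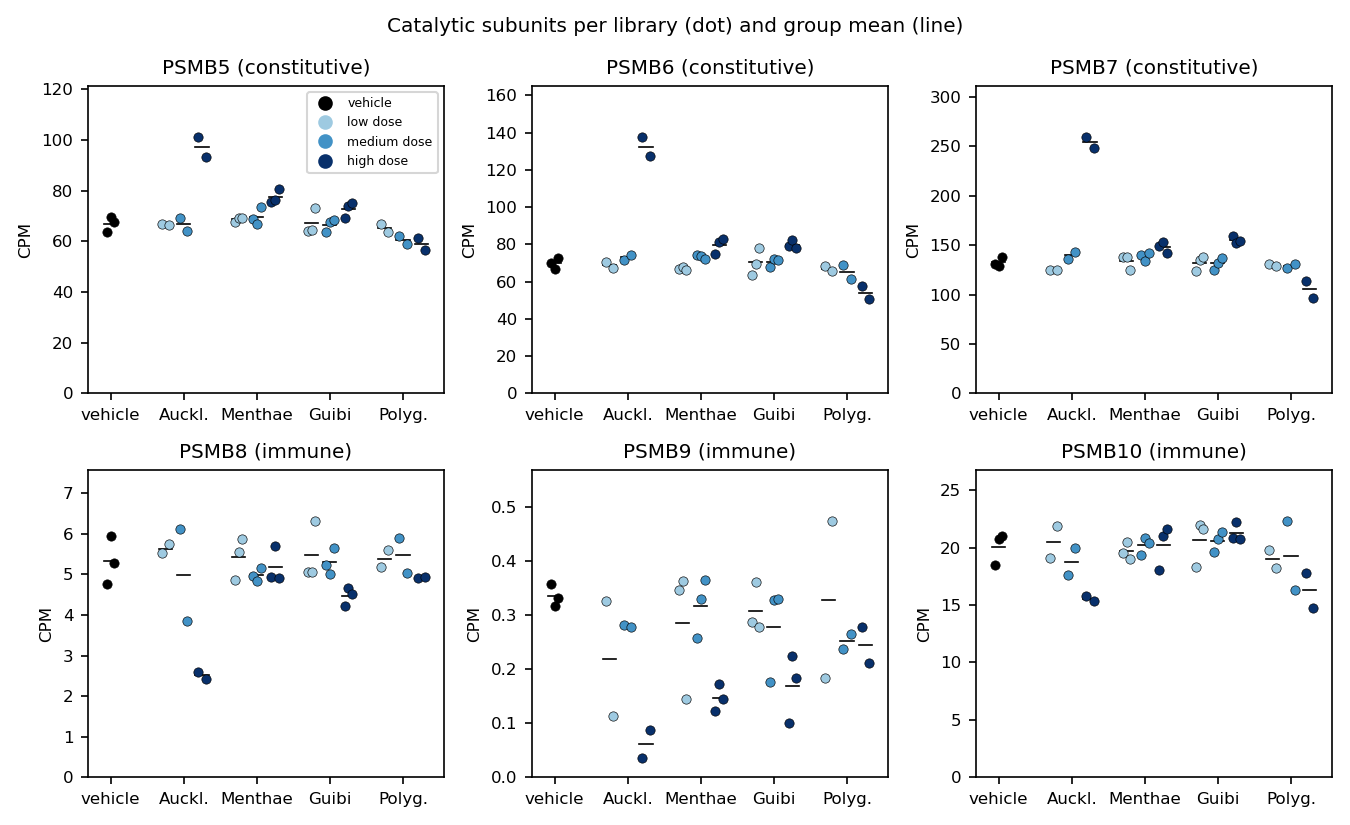
CPM per library (y axes) of PSMB5, PSMB6 and PSMB7 and of their immune counterparts PSMB8, PSMB9 and PSMB10 in vehicle and 4 extracts by dose (x axis). PSMB7 stands at 259 and 249 CPM in Aucklandiae Radix high while PSMB8 stands at 2.59 and 2.43 CPM.

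The assembly chaperones and the activators were mixed in Aucklandiae Radix. Of the 7 chaperones, PSMD9 rose (log2 fold change 0.46) and PSMG1 and PSMG4 fell. PSMG1, which helps to build the alpha ring, had 36.2 and 33.5 CPM in high libraries, against 49.6 and 50.6 CPM in low libraries (-0.52, adjusted p = 4.21e-10). PSMG4, a partner of PSMG3 in the same step, had 18.0 and 16.5 CPM in high libraries, against 25.2 and 25.8 CPM in low libraries (-0.56, adjusted p = 9.01e-09). PSMD5, PSMD10, PSMG2 and PSMG3 were not called, with log2 fold changes of 0.11, 0.18, 0.09 and -0.11. PSME4, the large activator of the nucleus, had 287 and 302 CPM in high libraries, against 163 and 166.5 CPM in low libraries, a log2 fold change of 0.84. PSME1, a subunit of the interferon-induced activator, had 53.7 and 49.6 CPM in high libraries, against 78.6 and 74.7 CPM in low libraries (-0.57 ± 0.07, adjusted p = 6.32e-09). Its partner PSME2 fell by 0.20 on the log2 scale (adjusted p = 0.00492), while PSME3, a nuclear activator, and PSMF1, an inhibitor of the core, rose by 0.27 and 0.37.

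Other measures also stood apart in Aucklandiae Radix high. Mitochondrial transcripts took 6.19% to 6.52% of counts there, 9.55% to 11.2% in Polygalae Radix high and 7.74% to 12.3% elsewhere. The endothelial markers summed to 8.29 and 8.72 CPM in Aucklandiae Radix high, against 0.531 to 2.10 CPM outside these high-dose pairs. PECAM1 alone averaged 8.14 CPM there and was at most 8.33 CPM in any library, and VWF made up the rest of these sums. Over the 59 libraries VWF was at most 0.39 CPM and was at 0 in 33. The blood cell markers summed to 1.2 and 1.87 CPM in Aucklandiae Radix high, against 2.12 to 2.78 CPM in Polygalae Radix high and 2.13 to 4.2 CPM elsewhere. In Polygalae Radix high the 9 gut epithelial markers summed to 7400 and 8230 CPM, against 10900 to 14800 CPM outside these high-dose pairs. The part of these measures in the results was not tested.

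In Polygalae Radix the falls covered 5 of 7 alpha subunits, 6 of 7 constitutive beta subunits, 5 of 6 ATPases and 7 of 11 other cap subunits. PSMD1, the scaffold of the cap's base, had 121 and 127 CPM in high libraries, against 199.6 and 200.4 CPM in low libraries (-0.69 ± 0.04, adjusted p = 1.32e-17). PSMD2, a scaffold of the same base, had 170.1 and 157 CPM in high libraries, against 253 and 249.6 CPM in low libraries (-0.62 ± 0.05, adjusted p = 8.58e-13). PSMB3, a structural beta subunit, had 145 and 135 CPM in high libraries, against 200.2 and 191 CPM in low libraries (-0.48, adjusted p = 1.38e-07). High and low libraries did not overlap for these 3 genes. PSMB6 had 57.5 and 50.6 CPM in high libraries, against 68.3 and 65.8 CPM in low libraries (-0.31, adjusted p = 0.000318). PSMB7 had 113 and 97.0 CPM in high libraries, against 131 and 129 CPM in low libraries (-0.31, adjusted p = 0.000146). Without Polygalae Radix high replicate 3, neither was called, with adjusted p-values of 0.0511 and 0.0508. PSMB5 had 61.3 and 56.7 CPM in high libraries, against 66.8 and 63.7 CPM in low libraries, and was not called (-0.15, adjusted p = 0.0915).

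The immune subunits were not called in Polygalae Radix, with log2 fold changes of -0.13 for PSMB8, -0.44 for PSMB9 and -0.23 for PSMB10. PSME1 fell there too, with 55.1 and 50.8 CPM in high libraries, against 80.6 and 73.7 CPM in low libraries (-0.54, adjusted p = 1.12e-07). Of the chaperones, PSMD10, which guides assembly of the cap's base, fell by 0.43 on the log2 scale. PSMG4 had 31.9 and 25.7 CPM in high libraries, against 26.0 and 24.8 CPM in low libraries, which overlapped, and was not called (0.18, adjusted p = 0.0515).

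The 2 extracts were compared directly at their high doses, 370 and 380 µg/mL. Aucklandiae Radix was higher for 37 proteasome genes and lower for 5, where 58.6% of all genes were called, and 35 were called with all 57 libraries. The median log2 fold change over the 46 genes was 0.80. PSMC4 and PSMD2 each differed by a log2 fold change of 1.53, PSMB6 by 1.29 and PSMB7 by 1.27. The 5 lower genes were PSMB9 (-1.95), PSMB8 (-0.97), PSMG4 (-0.73), PSMG1 (-0.46) and PSMG3 (-0.22). PSMB9 was not called there by DESeq2 (adjusted p = 0.109), without a filter (adjusted p = 0.0644), or without Aucklandiae Radix high replicate 2 (adjusted p = 0.178) or Polygalae Radix high replicate 2 (adjusted p = 0.104). Most genes also changed with dose differently in the 2 extracts. By an interaction test added after the data were seen, the high to low change differed for 38 of the 46 genes, where 46.6% of all genes were called. The count was 28 with all 57 libraries, where 22.7% of all genes were called. Among the genes called, PSMD2 had the largest difference, with a log2 value of 1.52 (adjusted p = 4.68e-21), and PSMB8 the most negative, at -1.03 (adjusted p = 7.84e-05). PSME1 fell in both extracts, and its changes differed by -0.02 (SE 0.10, adjusted p = 0.873). In all, 23 genes rose in Aucklandiae Radix and fell in Polygalae Radix, which is 67.6% of the 34 rises and 88.5% of the 26 falls. Over all genes, 751 did so, which is 14.8% of the 5076 rises and 27.5% of the 2726 falls.

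**Figure D4:**
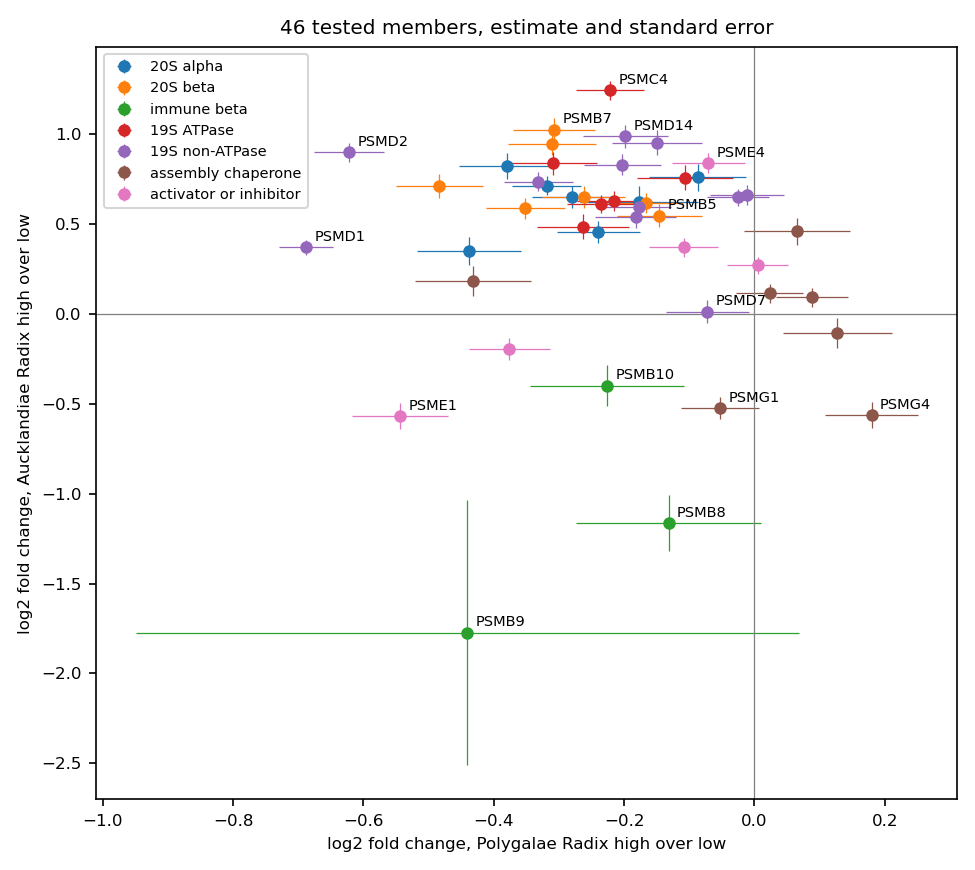
Log2 fold change of high over low dose in Aucklandiae Radix (y axis) against Polygalae Radix (x axis) for 46 proteasome genes coloured by role, with bars of 1 SE. Most core and cap genes lie in the upper left, and the immune subunits, PSMG1, PSMG4, PSME1 and PSME2 lie below the horizontal zero line.

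In Menthae Herba genes of each role but the immune one rose. The calls covered 6 of 7 alpha subunits, 6 of 7 constitutive beta subunits, 5 of 6 ATPases, 10 of 11 other cap subunits and 5 of 7 chaperones. PSMC4 had 161, 171 and 180.1 CPM in high libraries, against 135, 139 and 137 CPM in low libraries (0.32 ± 0.04, adjusted p = 1.51e-07). PSMB6 had 75, 81.1 and 83.1 CPM in high libraries, against 66.8, 67.7 and 66.4 CPM in low libraries (0.25, adjusted p = 0.000311). The high libraries lay above all low libraries for both. PSMB3 (0.28) and PSMC3 (0.27) also rose, as did PSME3 (0.25). PSMB5 (0.17, adjusted p = 0.0119) and PSMB7 (0.15, adjusted p = 0.0245) were called, but not with scaling by library totals alone (adjusted p = 0.137 and 0.211), under which 17 genes were called. PSMB5 was not called either without Menthae Herba high replicate 3 (adjusted p = 0.0859), nor PSMB7 without high replicate 1 (adjusted p = 0.0626), high replicate 2 (adjusted p = 0.118) or low replicate 3 (adjusted p = 0.193). PSMG1 and PSMG4 each rose, by log2 fold changes of 0.16, while both fell in Aucklandiae Radix. PSMB8 had a log2 fold change of -0.06 (95% interval -0.29 to 0.16) and PSMB10 of 0.04 (-0.14 to 0.23), and neither was called, nor was PSMB9 (-0.89, adjusted p = 0.16).

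Against Saposhnikoviae Radix of the same set, Menthae Herba high was higher for 24 genes and lower for none, where 16.1% of all genes were called. The count was 12 without Menthae Herba high replicate 2, 13 without replicate 3, and 1 with all 57 libraries. PSMA5 (0.26), PSMB5 (0.24) and PSMC3 (0.22) were among those that differed. The high to low change itself differed for 3 of the 46 genes, PSMA5, PSMC5 and PSMD1, where 3.68% of all genes were called. With all 57 libraries that change differed for 26 genes, where 12.9% of all genes were called.

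In Guibi-tang, 3 of 7 alpha subunits, 5 of 7 constitutive beta subunits, 5 of 6 ATPases, 7 of 11 other cap subunits and no chaperone rose. PSME4 had 184, 179 and 191 CPM in high libraries, against 159, 156 and 141 CPM in low libraries (0.28, adjusted p = 1.03e-05). PSMC5, an ATPase, had 160.2, 161 and 159.9 CPM in high libraries, against 128, 133 and 146 CPM in low libraries (0.25, adjusted p = 1.81e-05). PSMB7 had 159, 152 and 155 CPM in high libraries, against 124, 135 and 138 CPM in low libraries (0.23, adjusted p = 0.000596). The groups did not overlap for these genes, though low replicate 3 was the nearest to the high libraries for PSMC5 and PSMB7. PSMB6 had 78.9, 82.3 and 78.2 CPM in high libraries, against 63.6, 69.7 and 77.9 CPM in low libraries (0.18, adjusted p = 0.0118). PSMB6 was not called without Guibi-tang high replicate 2 (adjusted p = 0.0686) or low replicate 1 (0.11, adjusted p = 0.169). PSMB5 (0.12, adjusted p = 0.128), PSMB8 (-0.29, adjusted p = 0.0836), PSMB9 (-0.83, adjusted p = 0.221) and PSMB10 (0.05, adjusted p = 0.798) were not called. PSME1 was the 1 gene that fell, with 61.0, 74.1 and 65.9 CPM in high libraries, against 81.6, 82.9 and 85.9 CPM in low libraries (-0.32, adjusted p = 7.67e-05).

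Against Saengmaek-san of the same set, Guibi-tang high was higher for 9 genes and lower for 2, where 12.7% of all genes were called. The count of 11 fell to 7 without Guibi-tang high replicate 1 or 3 or Saengmaek-san high replicate 2, and to 0 with all 57 libraries. PSME4 was higher by 0.22, and PSMB8 (-0.39) and PSME1 (-0.30) were lower. PSMB8 was not called without a filter (adjusted p = 0.0557), or without Guibi-tang high replicate 1 (adjusted p = 0.089) or 3 (adjusted p = 0.0573) or Saengmaek-san high replicate 1 (adjusted p = 0.0737). The change with dose differed for 4 of the 46 genes, a share near the 7.30% of all genes called. They were PSMC5, PSMD3, PSME1 and PSME4, and the difference for PSME1 was -0.50 (adjusted p = 3.35e-05). With all 57 libraries the change differed for 0 genes, where 0.936% of all genes were called.

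The 3 genes called in Soyo-san were PSMB2, PSMD11 and PSME3. PSMB2, a structural beta subunit, had 284.5 and 276 CPM in high libraries, against 239 and 235 CPM in low libraries (0.24, adjusted p = 0.00834). PSMD11, a subunit of the cap's lid, had 334 and 301 CPM in high libraries, against 274 and 271 CPM in low libraries (0.22, adjusted p = 0.00368). PSME3 had 306 and 276 CPM in high libraries, against 265 and 247.5 CPM in low libraries (0.18, adjusted p = 0.0219). Across Aucklandiae Radix, Menthae Herba and Guibi-tang, 20 genes rose in all 3, of which 15 fell in Polygalae Radix. How many of all genes did so was not counted, so these overlaps have no background.

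The high doses were also compared with vehicle. In Aucklandiae Radix high, 37 of the 46 lay above vehicle and 8 below, where 62.6% of all genes were called. Polygalae Radix high had 1 higher and 33 lower, where 36.8% were called, and the 1 higher gene was PSMD12, a lid subunit, at 0.15. PSMD12 was not called there without a filter (adjusted p = 0.0697), without vehicle replicate 1 (0.09, adjusted p = 0.169) or 3 (adjusted p = 0.0688), or without Polygalae Radix high replicate 3 (0.09, adjusted p = 0.342). Menthae Herba high had 30 higher and 1 lower, where 28.8% were called, and Guibi-tang high had 20 higher and 1 lower, where 29.9% were called. Soyo-san high had 16 higher and 1 lower, where 18.0% were called. Its count of 17 fell to 6 without Soyo-san high replicate 2 and to 11 without vehicle replicate 1. Saengmaek-san high had 7 of the 46 higher, a share near the 12.1% of all genes called. There 3 to 11 were called as single libraries were left out. Saposhnikoviae Radix high had 4 of the 46 higher, a share below the 10.5% of all genes called. With all 57 libraries the counts called were 32 in Aucklandiae Radix, 7 in Polygalae Radix, 5 in Menthae Herba, 5 in Guibi-tang, 1 in Soyo-san and 0 in Saengmaek-san and Saposhnikoviae Radix. These 7 comparisons share the vehicle libraries.

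The low doses differed little from vehicle, with 1 to 7 genes called per extract. The background was 5.00% of all genes in Aucklandiae Radix, 10.3% in Polygalae Radix, 9.66% in Menthae Herba, 11.7% in Saposhnikoviae Radix, 6.31% in Guibi-tang, 18.4% in Saengmaek-san and 10.1% in Soyo-san. PSMD12 was called higher in 6 of the 7, by log2 fold changes of 0.16 to 0.19, but in none of these 6 without vehicle replicate 1, where its adjusted p was 0.0746 to 0.192. The comparisons share the vehicle libraries. Without vehicle replicate 3, the counts were 3 in Saengmaek-san, 1 in Saposhnikoviae Radix and 0 in the other 5. With all 57 libraries they were 28 in Saposhnikoviae Radix and 0 in the other 6.

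Over the 25 groups, each of the 31 core and cap genes was set against the mean of the others. The correlation was a median of 0.951 and above 0.8 for 29 of 31 genes, with PSMD1 at 0.797 and PSMD7 at 0.289. Without the high-dose groups of Aucklandiae Radix and Polygalae Radix the median was 0.867 over 23 groups. PSMC1, an ATPase, followed the others most closely, at 0.987. PSMB8 stood at -0.763, or -0.507 without those groups. PSMG1 stood at -0.602 and PSMG4 at -0.691, but at 0.444 and 0.506 without those groups, so their sign rests on the 2 high doses. The groups share libraries of a set and library scaling, and these values are descriptions.

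Transcript levels differed widely between members. On the CPM per kilobase scale, which depends on the transcript length chosen, vehicle cells had the highest levels for PSMB3 (278.5), PSME3 (273) and PSMA7 (267). PSMB10 stood at 16.5, PSMB8 at 4.74 and PSMB9 at 0.429.

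**Figure D5:**
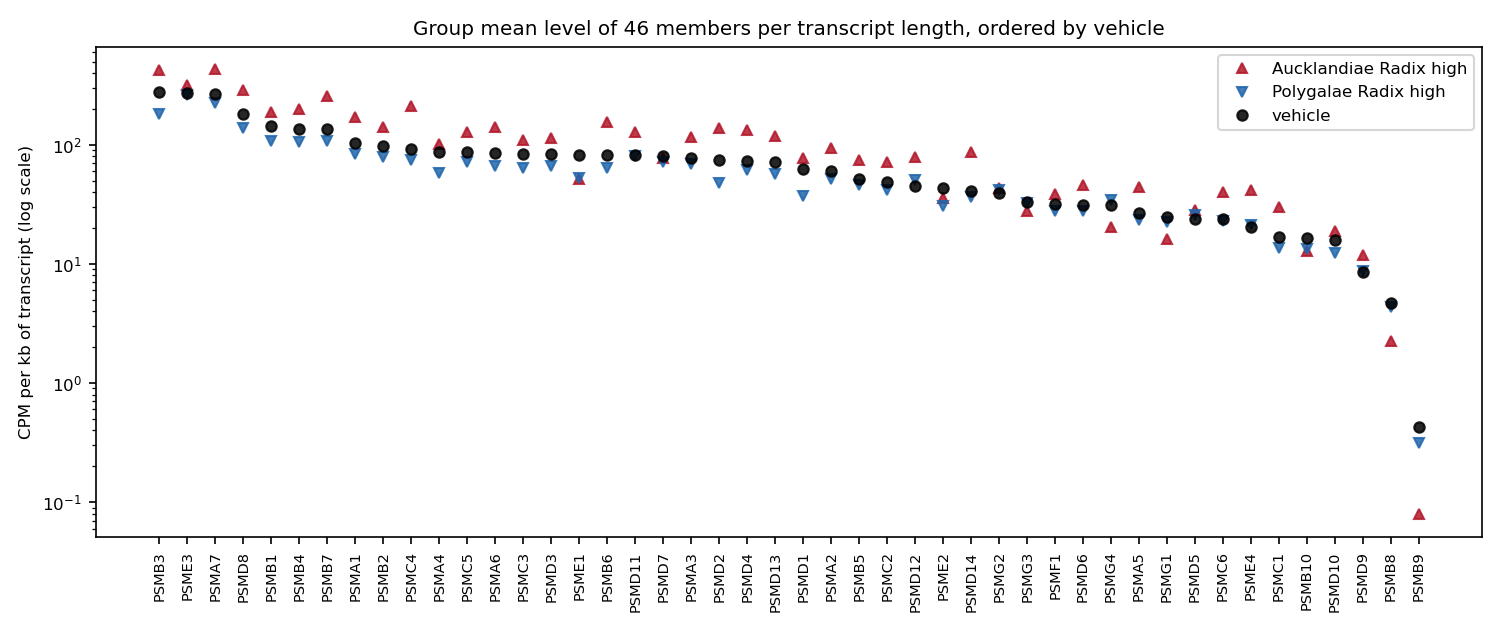
Group mean CPM per kilobase (log axis) of the proteasome genes, ordered by their level in vehicle, in Aucklandiae Radix high, Polygalae Radix high and vehicle. The levels in vehicle span 0.429 for PSMB9 to 278.5 for PSMB3. Aucklandiae Radix high lies above vehicle for most genes but below it for others, among them PSMB8, PSMB9, PSME1 and PSMG1.

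Lists of related genes were counted in the same high against low comparisons, where 59.1% of all genes were called in Aucklandiae Radix, 29.4% in Polygalae Radix, 23.8% in Menthae Herba, 18.1% in Guibi-tang and 2.60% in Soyo-san. Of 23 proteasome partners and regulators, 20 rose and 2 fell in Aucklandiae Radix. The largest rises there were POMP, the chaperone that matures the core, with a log2 fold change of 1.01, and TXNL1, a thioredoxin bound to the cap, with 0.87. NFE2L1 rose by 0.47 there, and DDI2, the protease that processes it, fell by 0.44 on the log2 scale. In Polygalae Radix 4 partners rose and 5 fell. VCP, the segregase that extracts ubiquitylated proteins, fell by 0.83 on the log2 scale, and AKIRIN2, which imports proteasomes into the nucleus, rose by 0.25. The list had 14 rises and 1 fall in Menthae Herba, 8 rises in Guibi-tang and 2 in Soyo-san. The 1 fall in Menthae Herba was NFE2L1, by 0.21 on the log2 scale.

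Of 6 ubiquitin supply genes, 2 rose and 1 fell in Aucklandiae Radix, a share below the 59.1% of all genes called there. UBA6, a ubiquitin-activating enzyme, had a log2 fold change of 0.29 there, and UBA1 of -0.10. In Polygalae Radix none rose, and UBA1, the main ubiquitin-activating enzyme, had 236 CPM at the high dose against 538 CPM at the low dose, on average (-1.19, adjusted p = 6.21e-26). UBB, a polyubiquitin gene, fell by 0.60 on the log2 scale there. The list had 1 rise in Menthae Herba and 1 fall in Guibi-tang, which was UBA1, at -0.13.

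Of 10 NRF2 targets, 9 rose in Aucklandiae Radix, 10 in Menthae Herba, 10 in Guibi-tang, 9 in Soyo-san, 7 in Saengmaek-san and 1 in Saposhnikoviae Radix, with no falls. The share of all genes called was 59.1% in Aucklandiae Radix, 29.4% in Polygalae Radix, 23.8% in Menthae Herba, 18.1% in Guibi-tang, 2.60% in Soyo-san, 0.830% in Saengmaek-san and 0.289% in Saposhnikoviae Radix. In Polygalae Radix 6 rose and 4 fell. HMOX1, heme oxygenase, had a log2 fold change of 2.43 in Aucklandiae Radix and 0.87 in Polygalae Radix. Of 18 antigen processing and interferon genes, 5 of them proteasome genes, 10 rose and 6 fell in Aucklandiae Radix. HLA-E, a class I molecule, rose by 1.5 there, and NLRC5, an activator of class I genes, by 2.85, with 4.27 CPM at the high dose against 0.597 CPM at the low dose. The immune subunits fell in those same libraries. This list had 1 rise and 6 falls in Polygalae Radix, 3 falls in Menthae Herba, and 2 rises and 3 falls in Guibi-tang.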

How the data were processed

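The deposited values are expected counts per gene. The submitters' processing notes name RSEM 1.3.3, STAR 2.7.3a, Trim Galore 0.6.5, FastQC 0.11.9 and the build hg38. Which gene annotation and which strand option the authors counted with is not given in the sources used, so genes that share reads with a pseudogene or an antisense gene are uncertain. Values that were not whole (10.0%) were rounded. Gene symbols came from GENCODE 29, which held 94.0% of the gene identifiers.

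Tests were made in R 4.3.3 with edgeR 4.0.16 (quasi-likelihood, TMM scaling, filterByExpr by group, 16978 genes, 56 libraries, 22 groups) and Benjamini-Hochberg adjustment over all genes. The call was an adjusted p under 0.05, two-sided. CPM are TMM-scaled. Saposhnikoviae Radix low replicate 2 was left out, and Okbyeongpung-san, with 1 library per dose, was not tested. The wortmannin control named in the design text was not analysed here. The method was tested on simulated data. In no comparison with 3 same-numbered pairs did every pair's deviations correlate above 0.1, so replicates were not paired.

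Alternatives were DESeq2 1.42.0, relative log expression scaling, library totals, no filter, a replicate block, all 57 libraries and leaving out each library. Interaction contrasts were added after the data were seen. The genes and lists were chosen with earlier results of these data known. Named genes were the up to 4 largest called rises and falls per comparison, the catalytic subunits and their immune counterparts, and members going against their role group. Exceptions chosen after their values were seen are NFE2L1, PSMD1 at low correlation, and the printed promoters. Library totals of 18690501 to 36796414 counts in the libraries used limit precision for PSMB9 most.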

Additional observations from a re-analysis of the deposited data

Results flagged for a closer look

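Vehicle libraries summed to 4371 to 4707 CPM over the 31 core and cap genes. The library left out, Saposhnikoviae Radix low replicate 2, had 12490 CPM. Its PSMB10 level was 191 CPM, against 18.5 to 21.0 CPM in vehicle libraries. Of the proteasome genes, 27 lay above and 10 below every other library. How many of all genes did so was not counted, so these counts have no background. The library left out correlated with its group at 0.85 at best.

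Okbyeongpung-san entered no test. Its summed level of the 31 core and cap genes was 5098 CPM in the high library and 4733 CPM in the medium library. Both lay above the highest vehicle library.

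The change from low to high dose differed between the 2 extracts of a set, by a test of the difference itself, for 38 proteasome genes in Aucklandiae Radix against Polygalae Radix, 35 with a higher and 3 with a lower value, where 46.6% of all genes differed. It differed for 3 of 46 genes in Menthae Herba against Saposhnikoviae Radix, where 3.68% of all genes differed. In Guibi-tang against Saengmaek-san it differed for 4 of 46, a share near the 7.30% of all genes. These counts were 28, 26 and 0 with all 57 libraries, where 22.7%, 12.9% and 0.936% of all genes differed. The doses of Aucklandiae Radix and Polygalae Radix were 370 and 380 µg/mL at the high level.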

How the results depend on the processing

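For 272 single-gene values, 3044 recomputed values were had under the alternatives, and 11 changed direction, all with all 57 libraries. A call was lost in 266, of which 138 left out a library, 84 used all 57 libraries, 23 had no filter, 17 used library totals, 2 used DESeq2 and 2 used relative log expression, and a call was gained in 10. The 11 values that changed direction were all in Saposhnikoviae Radix. For high against low they were PSMB6 (-1.08), PSMB7 (-0.99) and PSMB8 (-0.53). For medium against low they were PSMB10 (-1.85), PSMB6 (-1.11) and PSMB7 (-0.99). For low against vehicle they were PSMB10 (1.91), PSMB6 (1.15), PSMB7 (1.00), PSMB8 (0.53) and PSMD12 (-0.14). The library added there is 1 of the 3 of that low group.

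Counts of genes called moved by over 1.5 times as follows, given without the share of all genes called in the same setting. With all 57 libraries, high against low gave 4 in Polygalae Radix, 4 in Menthae Herba, 27 in Saposhnikoviae Radix, 3 in Guibi-tang and 0 in Soyo-san, and medium against low gave 24 in Saposhnikoviae Radix. High against vehicle gave 7 in Polygalae Radix, 5 in Menthae Herba, 5 in Guibi-tang, 1 in Soyo-san, and 0 in Saposhnikoviae Radix and Saengmaek-san, and low against vehicle gave 28 in Saposhnikoviae Radix and 0 in the other 6. Menthae Herba against Saposhnikoviae Radix gave 1, and Guibi-tang against Saengmaek-san 0. With library totals, Menthae Herba high against low gave 17, and low against vehicle gave 1 in Aucklandiae Radix, 2 in Guibi-tang and 5 in Soyo-san. This scaling moved the median of all genes by -0.11 in Aucklandiae Radix high against low, 0.13 in Polygalae Radix high against vehicle and -0.22 in Aucklandiae Radix against Polygalae Radix. With no filter, high against vehicle gave 4 in Saengmaek-san and 9 in Soyo-san. Low against vehicle then gave 1 each in Aucklandiae Radix, Polygalae Radix, Menthae Herba and Soyo-san and 4 in Saengmaek-san, and Guibi-tang against Saengmaek-san gave 7. Relative log expression gave 2 in Guibi-tang low against vehicle. DESeq2 gave 2 in Aucklandiae Radix and 1 in Polygalae Radix for medium against low, and 4 in Guibi-tang and 5 in Soyo-san for low against vehicle. The replicate block gave 2 in Aucklandiae Radix and 1 in Polygalae Radix for medium against low and 6 in Soyo-san low against vehicle. The replicates share only a number, since same-numbered pairs all correlated above 0.1 in Soyo-san high against vehicle alone, at 0.135 and 0.159 with 2 pairs. The cause was not tested for these counts.

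Leaving out each library in turn, high against low gave 40 to 42 genes in Aucklandiae Radix, 18 to 23 in Polygalae Radix, 24 to 32 in Menthae Herba, 16 to 29 in Guibi-tang, 0 to 3 in Soyo-san and 0 in Saengmaek-san. High against vehicle gave 42 to 45 in Aucklandiae Radix, 25 to 34 in Polygalae Radix, 24 to 34 in Menthae Herba, 15 to 24 in Guibi-tang, 6 to 16 in Soyo-san, 3 to 11 in Saengmaek-san and 3 to 6 in Saposhnikoviae Radix. Low against vehicle gave 0 to 6 in Aucklandiae Radix, 0 to 5 in Polygalae Radix, 0 to 6 in Menthae Herba, 0 to 7 in Saposhnikoviae Radix, 0 to 4 in Guibi-tang, 3 to 13 in Saengmaek-san and 0 to 6 in Soyo-san. The direct comparisons gave 39 to 42 for Aucklandiae Radix against Polygalae Radix, 12 to 23 for Menthae Herba against Saposhnikoviae Radix and 7 to 11 for Guibi-tang against Saengmaek-san. The share of all genes called is not given for these ranges. Where 1 of 2 libraries is left out, the other is assumed to vary like the other groups. Depth limits PSMB9 most, with at most 13 counts per library.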

Other observations

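Okbyeongpung-san had 1 library per dose, so no test was made. For the high library over the low library, the median log2 ratio of CPM plus 0.5 was 0.09 over 46 proteasome genes, with 35 positive. It was 0.13 over the 31 core and cap genes, with 29 positive. Over all genes the median was -0.005, and 48.4% were positive. The high library against the vehicle mean gave a median of 0.10, with 36 of 46 positive. The medium library against the low library gave 0.03.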
